A study of Mus musculus with 17 samples.

Results

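The genes described here are the members of 7 families of plasma and lysosomal membrane carriers that move amino acids and related small molecules, measured in periprostatic fat, the depot around the prostate, from 17 C57BL/6J males. A gene was a member if its symbol began with Slc1a, Slc3a, Slc6a, Slc7a, Slc36a, Slc38a or Slc43a followed by a digit, a rule on symbols alone that uses no measured value, although these families were picked with earlier results of these data known. This gave 64 of the 22180 genes with their own probe set, of which 61 are carriers and 3 are transcripts named for the opposite strand of one (Slc7a6os, Slc36a1os and Slc6a19os). Slc6a9 was present only on a probe set that it shares with Ccdc24 and was left out.

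RNA of each mouse was read on 1 Affymetrix Mouse Gene 2.0 ST array, a chip whose probes lie along the whole transcript. The wild-type males entered the study at 6 weeks of age. A low-fat group (LFD, 6 mice) had unlimited access to a diet with 10% of its energy as fat until 25 weeks of age, and a high-fat group (HFD, 6 mice) had unlimited access to one with 60%. The third group (HFD+CR in the labels, HFD_CR here, 5 mice) ate the high-fat diet freely for 12 weeks and then, for the last 7 weeks, was given each day 70% of what the HFD mice ate. The labels' treatment protocol gives this restriction, while their growth protocol speaks of free access for all animals, and the treatment protocol was followed here. HFD minus LFD compares the diets at free intake, HFD_CR minus HFD compares the intakes on 1 diet, and HFD_CR minus LFD sets the restricted mice against the lean-diet controls. No mouse was restricted on the low-fat diet.

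Amino acids do not cross membranes unaided, and the families divide the work by substrate and by driving force. Slc1 proteins take up glutamate, aspartate or small neutral amino acids with sodium, Slc6 proteins use sodium and chloride for taurine, creatine, betaine, GABA, proline and monoamines, and Slc38 proteins take up or release glutamine and other neutral amino acids. Slc7 light chains mostly exchange one amino acid for another and reach the surface bound to a heavy chain of the Slc3 family, while Slc36 and Slc43 proteins move small or large neutral amino acids, some with protons and some without a coupled ion. Several members also work on the lysosome, where they report amino acid supply to the growth-controlling kinase mTORC1, and some are targets of the transcription factor Atf4, which is made when amino acids run short. In fat, adipocytes, macrophages, progenitors and vessels each carry their own set of these proteins.

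The tissue label was met by the signals of fat cell genes: the mean log2 signal of 11 adipocyte genes was 12.49 to 12.67 in LFD, 12.20 to 12.40 in HFD and 12.50 to 12.67 in HFD_CR. The mean of 13 macrophage genes was 9.46 to 9.89 in LFD, 10.82 to 11.31 in HFD and 9.96 to 10.53 in HFD_CR, so this list did not overlap between any pair of groups. In HFD minus LFD 12 of the 13 macrophage genes rose and 0 fell, and in HFD_CR minus HFD 1 rose and 12 fell. Of the 11 adipocyte genes 1 rose and 9 fell in HFD minus LFD, and 8 rose and 0 fell in HFD_CR minus HFD. In bulk tissue fewer cells of a type and less RNA per cell cannot be told apart, and the part of these cell types in the transporter differences was not tested. With the macrophage list mean as a covariate, limma called 0 of 22180 genes in HFD minus LFD (410 higher and 270 lower at an unadjusted p under 0.05) and 0 in HFD_CR minus HFD (683 and 567), so list and group cannot be told apart in this design. Single arrays were high in genes of other tissues, given here as the excess of a list's mean log2 signal over that of the median array. For skeletal muscle the excess was 3.17 (LFD mouse 2), 2.07 (LFD mouse 3), 2.07 (HFD_CR mouse 2) and 1.03 (HFD mouse 6). For gland epithelium it was 2.29 (LFD mouse 3) and 1.34 (HFD mouse 3), for thermogenic adipocytes 2.17 and 1.74 (LFD mice 3 and 6), and for male germ cells 2.08 (HFD_CR mouse 1).

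**Figure D1:**
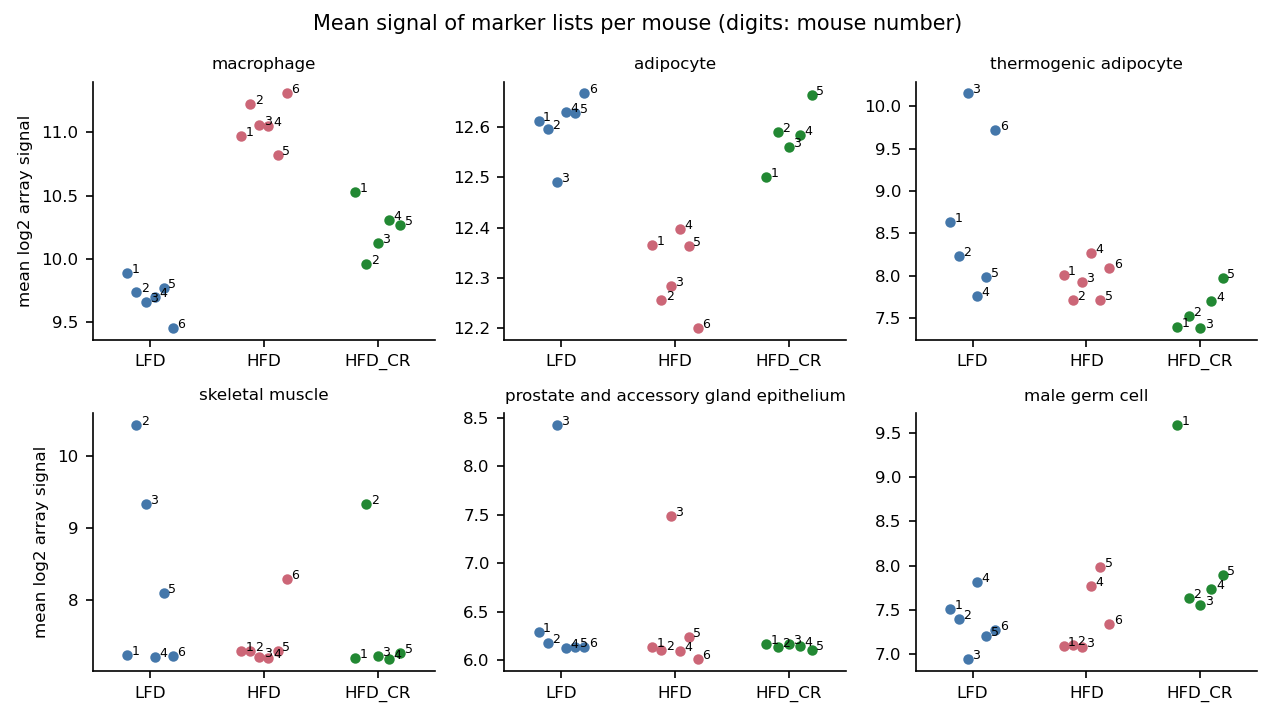
Mean log2 array signal of 6 marker lists (vertical axes) in each mouse, by group along the horizontal axis, each point labelled with its mouse number. The macrophage list runs from 9.46 to 9.89 in LFD, from 10.82 to 11.31 in HFD and from 9.96 to 10.53 in HFD_CR, while muscle, gland, thermogenic and germ cell lists are high in single mice.

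A gene is said to rise or fall when its limma Benjamini-Hochberg adjusted p, taken over all 22180 genes, was under 0.05. In HFD minus LFD 12 members rose and 9 fell, 32.8% of the 64, beside 27.8% of all genes (16.5% rose and 11.3% fell). In HFD_CR minus HFD 6 members rose and 9 fell, 23.4%, beside 19.0% of all genes (7.69% rose and 11.3% fell), and in HFD_CR minus LFD 7 rose and 1 fell, 12.5%, beside 9.08% (5.80% rose and 3.28% fell). The members' shares of calls were thus near those of the whole array and slightly above them. That excess was not tested, and the families were picked with earlier results of these data known. Groups did not overlap for 14 members (21.9%) in HFD minus LFD, 8 higher and 6 lower, beside 14.3% of all genes (9.05% and 5.21%). In HFD_CR minus HFD this held for 13 members (20.3%), 6 higher and 7 lower, beside 13.7% (5.42% and 8.26%), and in HFD_CR minus LFD for 7 (10.9%), 6 higher and 1 lower, beside 6.67% (4.24% and 2.43%). That lower member was Slc6a17, which was not called (limma adjusted p = 0.102) and had all group means below the lowest array median. When quantile normalization was applied again, the share of calls that were higher moved from 59.4% to 47.9% over all genes in HFD minus LFD and from 40.5% to 51.4% in HFD_CR minus HFD, and the members then split 9 higher and 9 lower, and 9 higher and 8 lower. The members' median log2 difference was 0.04, -0.01 and 0.03 in the 3 comparisons, beside -0.0032, -0.0024 and -0.00045 for all genes. Without HFD mouse 2, only 5 members fell in HFD minus LFD.

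In all, 26 members (40.6%) were called at least once, beside 33.7% of all genes. The comparisons share arrays, so opposite signs in HFD minus LFD and HFD_CR minus HFD, which share the 6 HFD mice, are partly built in. In HFD minus LFD 16.5% of all genes rose and 11.3% fell, and no family was tested against these shares. Of 20 Slc6 genes 3 rose and 2 fell there. Of 16 Slc7 genes 2 rose and 2 fell, and of 11 Slc38 genes 3 rose and 1 fell. Of 7 Slc1 genes 1 rose and 3 fell, of 5 Slc36 genes 2 rose and 0 fell, and of 3 Slc43 genes 1 rose and 1 fell. Of the 64 members, 28 had all 3 group means below 7.03, the lowest median of an array, and are not shown above background. 

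**Figure D2:**
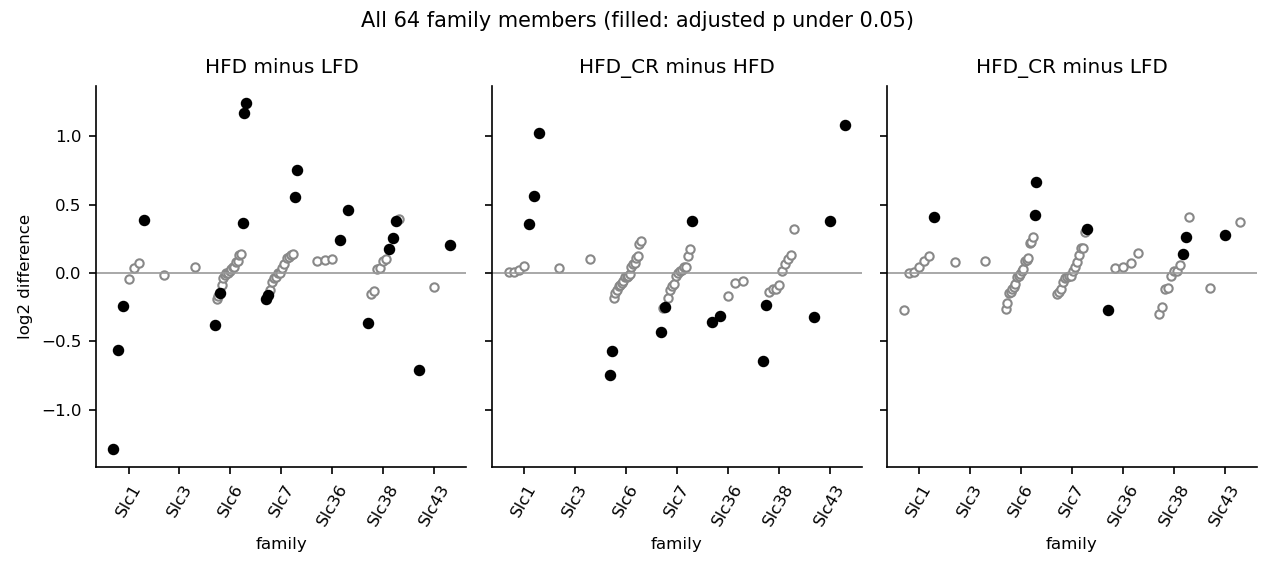
Log2 difference of each of the 64 members (vertical axis) by family (horizontal axis) in the 3 comparisons, with filled points at an adjusted p under 0.05. In HFD minus LFD filled points run from -1.29 to 1.24 and lie on both sides of 0 in Slc1, Slc6, Slc7, Slc38 and Slc43, while in HFD_CR minus HFD they run from -0.75 to 1.08 and do so in Slc7 and Slc43.

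**Figure D3:**
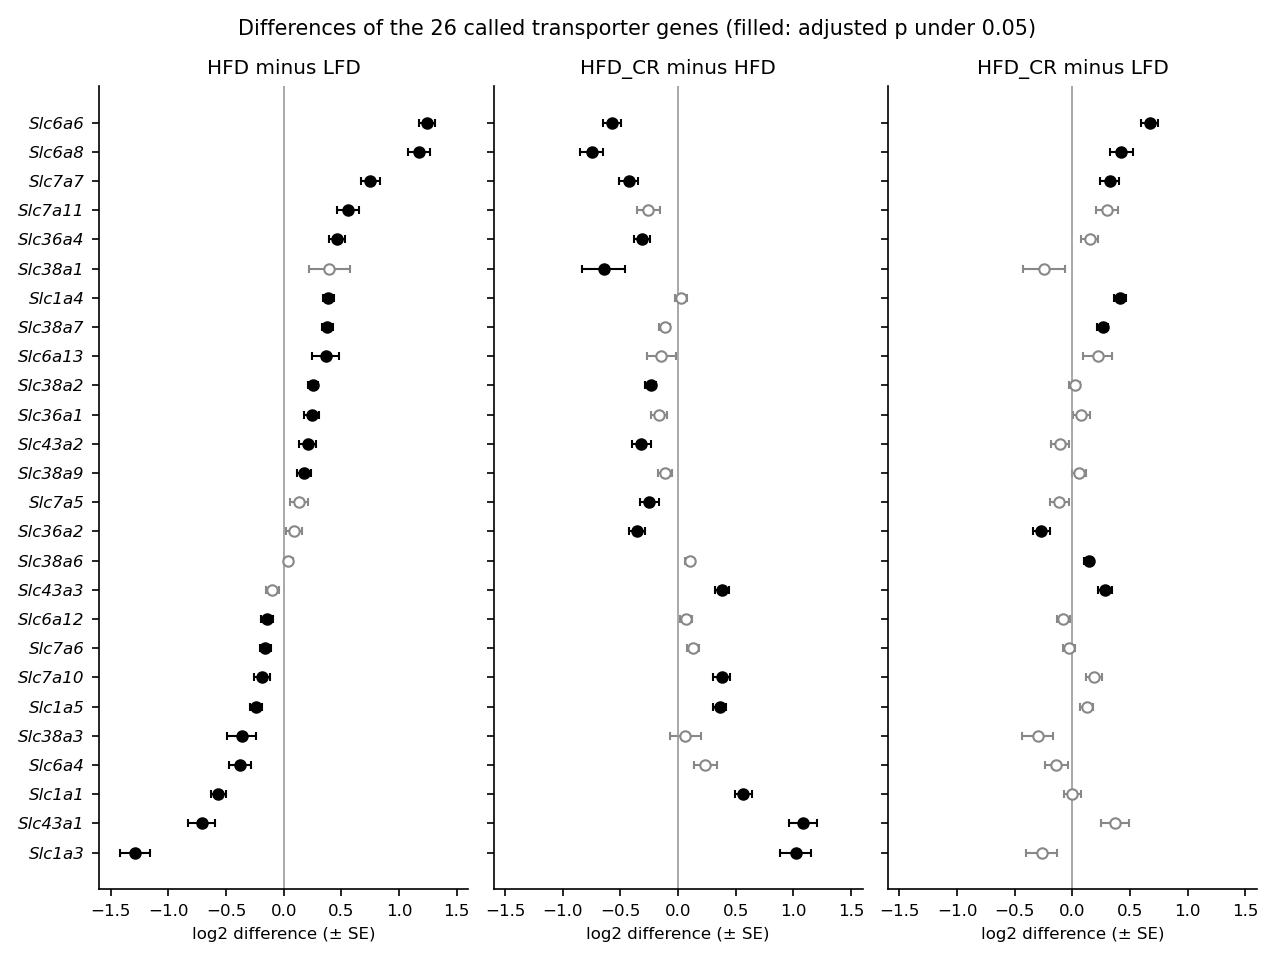
Log2 difference with its standard error (horizontal axes) of the 26 members called in at least 1 comparison, in order of HFD minus LFD, with filled points at an adjusted p under 0.05. Slc6a6, Slc6a8 and Slc7a7 are filled in all 3 panels, right of 0, left of 0 and right of 0, while Slc1a4 stays near 0.4 whenever LFD is the reference.

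Among the sodium- and chloride-coupled Slc6 carriers, the taurine transporter Slc6a6 rose most of all members on the high-fat diet. Its log2 signal was 10.55 at the lowest, 10.73 at the median and 10.87 at the highest in LFD, 11.76, 11.97 and 12.21 in HFD, and 11.43, 11.20, 11.47, 11.47 and 11.42 in HFD_CR mice 1 to 5. All HFD_CR mice lay between the other groups and no pair of groups overlapped. The difference was 1.24 ± 0.07 (SE) in HFD minus LFD, or 2.36-fold (limma adjusted p = 5.52e-09). Restricted intake lowered it by a log2 difference of -0.57 ± 0.08, 1.49-fold (adjusted p = 4.16e-05), and left it 0.67 ± 0.08 above LFD, 1.59-fold (adjusted p = 2.98e-05).

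Slc6a8, which imports creatine, followed the same order of groups. It gave 9.41, 9.69 and 9.84 (lowest, median, highest) in LFD, 10.64, 10.78 and 11.09 in HFD, and 10.40, 9.84, 10.09, 10.10 and 10.10 in HFD_CR mice 1 to 5. HFD_CR mouse 2 came within 0.01 of the highest LFD mouse without overlapping it, and HFD_CR mouse 1 was the highest of its group. The differences were 1.17 ± 0.10 in HFD minus LFD (2.25-fold, limma adjusted p = 7.48e-08), -0.75 ± 0.10 in HFD_CR minus HFD (1.68-fold lower, adjusted p = 4.94e-05) and 0.42 ± 0.10 in HFD_CR minus LFD (adjusted p = 0.0123). The macrophage list had the same order of groups as both genes, and HFD mouse 6 was highest in Slc6a6 and in that list. The muscle list of that mouse was 1.03 above the median array. Among HFD_CR mice, mouse 1 was the highest in the macrophage list and mouse 4 in Slc6a6. With the adipocyte list as a covariate Slc6a6 was called in HFD minus LFD (1.01, limma adjusted p = 0.0115) but not in HFD_CR minus HFD (-0.36, adjusted p = 0.485). Slc6a8 was then not called in HFD minus LFD (0.70, adjusted p = 0.075). In HFD_CR minus LFD both were called. With the macrophage list no Slc6 gene was called. Neither list overlapped between LFD and HFD, so list and group cannot be told apart, and the part of these cell types was not tested.

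The neighbouring genes Slc6a13 and Slc6a12, carriers of GABA and of betaine and GABA, moved apart. Slc6a13 rose by 0.36 ± 0.12 in HFD minus LFD (limma adjusted p = 0.0274), with LFD mice at 11.04, 10.70, 9.97, 10.63, 10.45 and 10.42 and HFD mice from 10.79 to 11.06. LFD mouse 1 lay within the HFD range, and LFD mouse 3, the array high in gland, muscle and thermogenic genes, was the lowest. The call ended without LFD mouse 5 or 6 or HFD mouse 1 or 2 (0.33 to 0.35, adjusted p = 0.0539 to 0.062), and leaving out both LFD mice 3 and 6 gave 0.19 (adjusted p = 0.124). Slc6a12 fell by 0.15 on the log2 scale, from 7.79 to 7.91 in LFD to 7.59 to 7.78 in HFD with no overlap (adjusted p = 0.0373). That call ended when any of LFD mice 1, 2, 4 and 5 or HFD mice 1, 2 and 6 was left out (-0.15 to -0.12, adjusted p = 0.0536 to 0.0953).

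The serotonin transporter Slc6a4 was 8.25 ± 0.166 (SD, n = 6) in LFD, 7.87 ± 0.167 (n = 6) in HFD and 8.11 ± 0.208 (n = 5) in HFD_CR. It fell in HFD minus LFD by 0.38 on the log2 scale (SE 0.10, limma adjusted p = 0.00631), although the groups overlapped. In HFD_CR minus HFD the difference was 0.24 ± 0.10 (adjusted p = 0.122). The other 15 Slc6 genes were not called in any comparison, and Slc6a7, a proline carrier, was the only one of them with all 3 group means at or above 7.03 (7.03, 7.16 and 7.13).

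Of the heavy chains, Slc3a2 (CD98), which escorts most light chains to the surface, did not pass the test. It was 11.97 ± 0.123 (SD, n = 6) in LFD, 12.01 ± 0.074 (n = 6) in HFD and 12.05 ± 0.0921 (n = 5) in HFD_CR, and its 3 differences were 0.04 ± 0.06, 0.04 ± 0.06 and 0.08 ± 0.06 (limma adjusted p = 0.644, 0.764 and 0.487). Slc3a1, the partner of the kidney cystine carrier, was not shown above background.

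Among light chains, those called in HFD minus LFD rose for Slc7a7 and Slc7a11 and fell for Slc7a6 and Slc7a10. Slc7a7 (y+LAT1) exports arginine and lysine in exchange for neutral amino acids and is known from macrophages, kidney and gut. Slc7a11 (xCT) imports cystine for glutathione and releases glutamate, and is a known Atf4 target. Start-site sequences of both are printed with that of Slc1a4, a carrier described below, because TGATGNAA, the core of the amino acid response element that Atf4 and its partners bind, was found in them. They come from RefSeq's table for the build GRCm38.p6, run 5′ to 3′ on the gene's strand from 150 bases before the start to 30 after it, and capitals mark the matches on either strand. Slc7a11 is at chr3:50443584-50443763, Slc1a4 at chr11:20332684-20332863 and Slc7a7 at chr14:54417915-54418094, all on the minus strand.
Slc7a11: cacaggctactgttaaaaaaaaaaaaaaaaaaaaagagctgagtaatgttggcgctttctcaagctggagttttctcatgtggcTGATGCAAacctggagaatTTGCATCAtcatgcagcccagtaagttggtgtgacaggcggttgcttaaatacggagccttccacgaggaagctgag
Slc1a4: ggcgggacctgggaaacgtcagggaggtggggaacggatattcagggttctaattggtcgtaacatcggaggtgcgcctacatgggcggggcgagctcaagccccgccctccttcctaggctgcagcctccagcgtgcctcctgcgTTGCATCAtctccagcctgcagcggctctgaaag
Slc7a7: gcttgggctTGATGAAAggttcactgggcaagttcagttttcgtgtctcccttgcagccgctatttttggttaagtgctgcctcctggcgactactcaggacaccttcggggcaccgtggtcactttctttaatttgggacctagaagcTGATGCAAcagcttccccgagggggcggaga
Slc7a11 held a facing pair of matches, their leftmost bases at -66 and -47 from the start. Slc1a4 held 1 match at -4, and Slc7a7 held 2, at -141 and -1. RefSeq lists another start of Slc7a7, from which the same TGATGCAA lies at -243 and is the only match in the window. In windows of 300 bases the letters occurred for 4.51% of all 27025 genes of the table, for 4 of the 47 members listed there (Slc6a21 is the other) and for 3 of the 18 listed members that were called. A match of these letters is a description of the sequence and not a measured binding site.

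Slc7a7 log2 signal was 8.32, 8.60 and 8.81 (lowest, median, highest) in LFD, 9.19, 9.32 and 9.52 in HFD, and 9.05, 8.89, 9.01, 8.82 and 8.71 in HFD_CR mice 1 to 5. HFD overlapped neither other group, while HFD_CR mouse 5 lay inside the LFD range. The gene rose by 0.75 ± 0.08 in HFD minus LFD (1.68-fold, limma adjusted p = 1.48e-06) and was lower in HFD_CR than in HFD by 1.35-fold (-0.43 ± 0.09, adjusted p = 0.00149). It stayed 0.32 ± 0.09 above LFD (adjusted p = 0.023), a call that ended without HFD_CR mouse 1 or 3 (0.28 to 0.29, adjusted p = 0.0662 to 0.0721) and without LFD mice 3 and 6 (0.23, adjusted p = 0.116). The macrophage list had the same order of groups, and the part of macrophages in Slc7a7 was not tested.

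Slc7a11 lay below every array's median in all groups and so is not shown above background. Its values were 5.80, 5.96 and 6.25 in LFD, 6.41, 6.56 and 6.71 in HFD, and 6.50, 5.96, 6.38, 6.39 and 6.31 in HFD_CR mice 1 to 5. Every HFD mouse was above every LFD mouse, and HFD_CR mouse 2 was as low as the LFD median. The difference in HFD minus LFD was 0.56 ± 0.09 (limma adjusted p = 0.00015). A second, dimmer probe set of Slc7a11 (mean 4.95) gave 0.0042 (adjusted p = 0.948), and the average of both gave 0.28. HFD_CR minus LFD was 0.30 ± 0.10 (adjusted p = 0.0624), and passed without LFD mouse 2, LFD mouse 5 or HFD_CR mouse 2 (0.34 to 0.39, adjusted p = 0.00947 to 0.0311).

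Slc7a10 (Asc-1), a carrier of small neutral amino acids known as a surface protein of white adipocytes, was higher in the restricted mice. It gave 11.83, 12.17 and 12.29 in LFD, 11.85, 11.88 and 12.10 in HFD, and 12.20, 12.31, 12.33, 12.35 and 12.40 in HFD_CR mice 1 to 5. HFD_CR lay above all HFD mice, by 0.38 ± 0.07 on average (limma adjusted p = 0.00119), but overlapped LFD. The fall in HFD minus LFD (-0.19 ± 0.07, adjusted p = 0.0497) was at the threshold. It ended when any single array was left out other than LFD mouse 3 and HFD mice 4 and 5 (-0.20 to -0.16, adjusted p = 0.0501 to 0.113). The adipocyte list also was lower in HFD than in LFD and higher in HFD_CR than in HFD. Its mean in HFD_CR (12.58) was about that in LFD (12.6). The part of adipocytes in Slc7a10 was not tested.

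The remaining light chains moved by small amounts. Slc7a5 (LAT1), which exchanges leucine and other large neutral amino acids, was 9.01 ± 0.14 (SD, n = 6), 9.15 ± 0.1 (n = 6) and 8.90 ± 0.185 (n = 5) in LFD, HFD and HFD_CR. It fell in HFD_CR minus HFD (-0.25 ± 0.08, limma adjusted p = 0.0413), a call that ended without any of HFD mice 1, 2, 3 and 6 or HFD_CR mice 2, 3, 4 and 5 (-0.26 to -0.21, adjusted p = 0.0549 to 0.12). Slc7a6 (y+LAT2), the relative of Slc7a7 found in many tissues, fell in HFD minus LFD from 10.37 ± 0.101 to 10.21 ± 0.0785 (-0.16 ± 0.05, adjusted p = 0.0239). That call ended without LFD mouse 6 or HFD mouse 2 or 4 (-0.15 to -0.12, adjusted p = 0.0539 to 0.0581). Slc7a8 (LAT2) was 11.18, 11.18 and 11.36 in the 3 groups, and the cationic carriers Slc7a1 (8.38, 8.52 and 8.34) and Slc7a2 (7.76, 7.64 and 7.62), which import arginine, did not pass the test either.

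Among Slc1 carriers, both glutamate transporters called were lower on the high-fat diet. Slc1a3 (EAAT1, GLAST) takes up glutamate and aspartate. Its log2 signal was 10.86, 11.07 and 11.22 (lowest, median, highest) in LFD, 9.47, 9.73 and 10.14 in HFD, and 10.31, 10.89, 10.90, 10.69 and 11.17 in HFD_CR mice 1 to 5. Every HFD mouse was below every mouse of the other groups. Slc1a3 fell 2.44-fold in HFD minus LFD (-1.29 ± 0.13, limma adjusted p = 5.51e-07) and was 2.03-fold higher in HFD_CR than in HFD (1.02 ± 0.13, adjusted p = 4.05e-05). HFD_CR minus LFD was -0.27 ± 0.13 (adjusted p = 0.261), with HFD_CR mouse 1 the lowest of the restricted mice. That mouse was the highest of its group in the macrophage list and was also the array high in germ cell genes. HFD_CR mouse 2, the lowest of its group in the macrophage list at 9.96, was at 10.89 in Slc1a3, and HFD_CR mouse 5 was the highest. The part of these cell types in Slc1a3 was not tested.

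Slc1a1 (EAAT3), which carries glutamate, aspartate and cysteine, gave 8.25, 8.45 and 8.66 in LFD, 7.79, 7.87 and 8.02 in HFD, and 8.43, 8.49, 8.55, 8.51 and 8.31 in HFD_CR mice 1 to 5. HFD again lay below both other groups, which overlapped. The differences were -0.57 ± 0.07 (1.48-fold lower, limma adjusted p = 4.72e-06) and 0.57 ± 0.07 (1.48-fold higher, adjusted p = 2.85e-05), and HFD_CR minus LFD was within 0.01 of 0 (adjusted p = 0.999).

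The neutral carriers of this family differed from each other. Slc1a5 (ASCT2), a sodium-dependent exchanger of glutamine and other neutral amino acids, gave 13.16, 13.31 and 13.39 in LFD, 12.99, 13.06 and 13.15 in HFD, and 13.26, 13.39, 13.48, 13.49 and 13.49 in HFD_CR mice 1 to 5. HFD did not overlap either group. Slc1a5 fell by 0.24 on the log2 scale in HFD minus LFD (SE 0.05, limma adjusted p = 0.00192) and rose 1.28-fold in HFD_CR minus HFD (0.36 ± 0.05, adjusted p = 0.000138), and its second probe set gave -0.26 and 0.33 (adjusted p = 0.0298 and 0.0148).

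Slc1a4 (ASCT1), which exchanges serine, alanine, cysteine and threonine and whose start site was printed above, was higher in both high-fat groups. LFD gave 7.86, 7.87 and 8.03, HFD gave 8.12, 8.29 and 8.40, and HFD_CR mice 1 to 5 gave 8.29, 8.32, 8.33, 8.27 and 8.31. No LFD mouse reached either high-fat group, and the restricted mice lay within the HFD range. It rose by 0.39 ± 0.05 in HFD minus LFD (1.31-fold, limma adjusted p = 1.11e-05) and by 0.41 ± 0.05 in HFD_CR minus LFD (1.33-fold, adjusted p = 9.69e-05), while HFD_CR minus HFD was 0.02 ± 0.05 (adjusted p = 0.828). HFD and HFD_CR are thus not ordered for Slc1a4, while the macrophage list did not overlap between them. With that list as a covariate Slc1a4 was the only member called, in HFD_CR minus LFD (0.49, limma adjusted p = 0.0229). It was not called in HFD minus LFD (0.59), where no gene was. List and group cannot be told apart in this design, and the part of macrophages was not tested. With the adipocyte list Slc1a4 was called in HFD minus LFD (0.52, adjusted p = 0.0311).

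**Figure D4:**
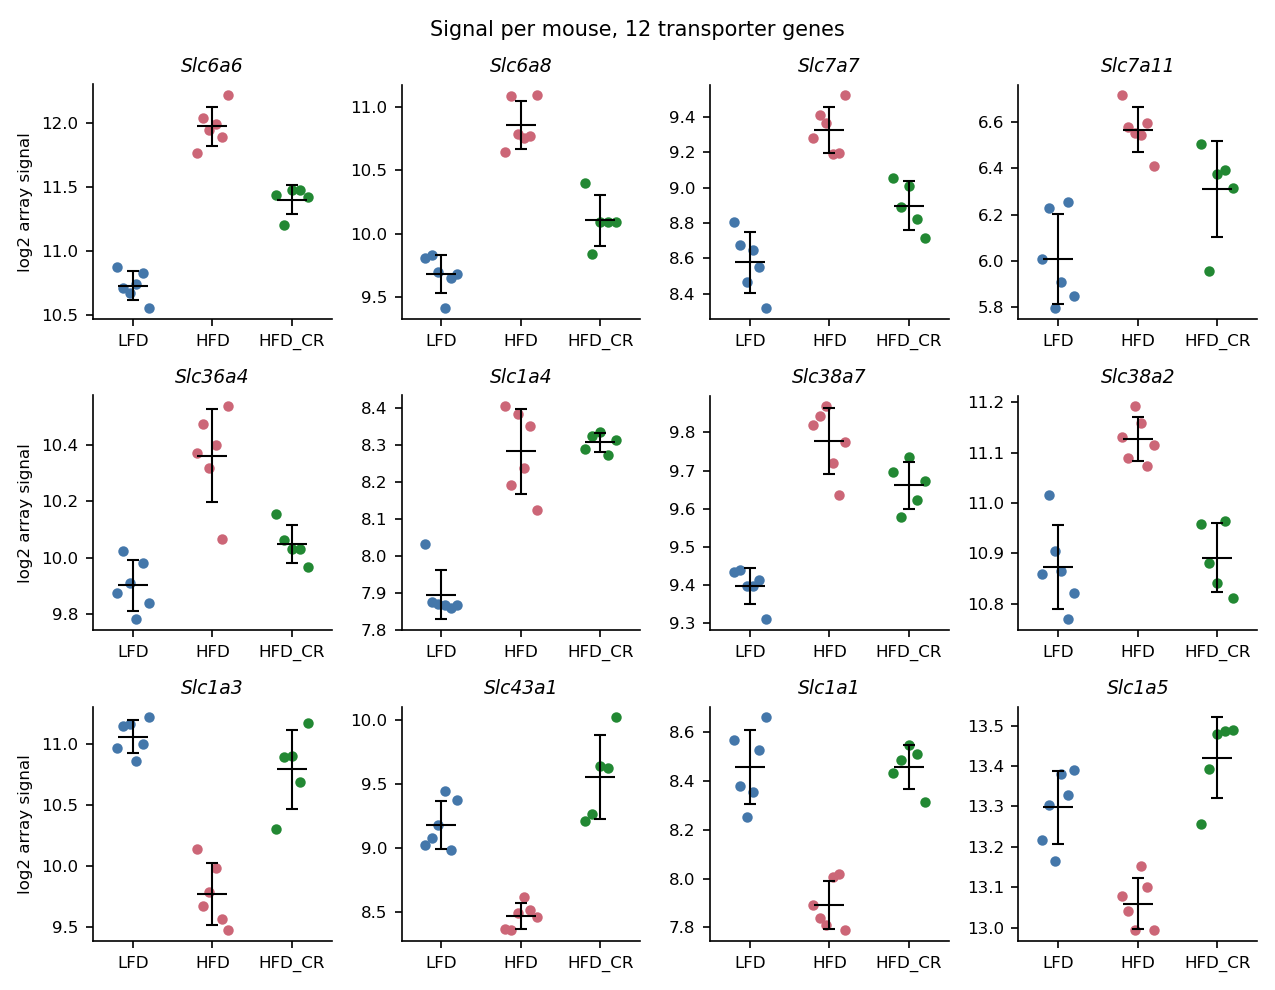
Log2 array signal (vertical axes) of 12 members in each mouse, with 1 point per mouse, the group mean and 1 SD, and the groups along the horizontal axes. The HFD points of Slc6a6 (11.76 to 12.21) lie above all other mice and those of Slc1a3 (9.47 to 10.14) below all others, while the HFD_CR points of Slc1a4 (8.27 to 8.33) lie within the HFD range.

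Slc43a1 (LAT3), which lets leucine and other large neutral amino acids through without sodium, had the greatest rise of all members on restricted intake. It gave 8.98, 9.13 and 9.44 in LFD, 8.36, 8.48 and 8.62 in HFD, and 9.21, 9.26, 9.64, 9.63 and 10.02 in HFD_CR mice 1 to 5. HFD was below every other mouse, and HFD_CR mice 3, 4 and 5 were above every LFD mouse. It fell 1.64-fold in HFD minus LFD (-0.71 ± 0.12, limma adjusted p = 0.000125) and rose 2.12-fold in HFD_CR minus HFD (1.08 ± 0.12, adjusted p = 1.19e-05). HFD_CR minus LFD was 0.37 ± 0.12 (adjusted p = 0.0659), and passed without LFD mouse 4, HFD_CR mouse 1 or HFD_CR mouse 2 (0.42 to 0.46, adjusted p = 0.0261 to 0.0439).

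Slc43a3, a family member known to carry purine nucleobases, did not pass in HFD minus LFD (-0.10 ± 0.06, limma adjusted p = 0.223). It gave 12.11, 12.19 and 12.27 in LFD, 11.97, 12.11 and 12.22 in HFD, and 12.43, 12.27, 12.54, 12.58 and 12.56 in HFD_CR mice 1 to 5. The restricted mice were above both other groups with no overlap, by 0.38 ± 0.06 over HFD (adjusted p = 0.000167) and 0.28 ± 0.06 over LFD (adjusted p = 0.00503). Slc43a2 (LAT4), a relative of LAT3 with a like range of substrates, went the other way, from 9.13 ± 0.144 (SD, n = 6) in HFD to 8.81 ± 0.101 (n = 5) in HFD_CR with no overlap (-0.32 ± 0.08, adjusted p = 0.00826). Without the 5 arrays high in muscle or gland genes that p was 0.0501. Its rise in HFD minus LFD (0.21 ± 0.08, adjusted p = 0.0498) ended in 11 of the 17 sets that lacked 1 array (0.17 to 0.21, adjusted p = 0.0521 to 0.126). It held only without LFD mouse 1 or 3, HFD mouse 1, 4 or 5, or HFD_CR mouse 3.

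The sodium-coupled Slc38 carriers called in HFD minus LFD rose except for Slc38a3. Slc38a2 (SNAT2), the system A carrier that cells raise when amino acids are scarce, gave 10.77, 10.86 and 11.02 in LFD, 11.07, 11.12 and 11.19 in HFD, and 10.96, 10.88, 10.84, 10.96 and 10.81 in HFD_CR mice 1 to 5. HFD lay above both other groups, which overlapped. The differences were 0.25 ± 0.05 (1.19-fold, limma adjusted p = 0.000297) and -0.24 ± 0.05 (adjusted p = 0.00159), and HFD_CR minus LFD was 0.02 ± 0.05 (adjusted p = 0.876).

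Slc38a1 (SNAT1), its glutamine-carrying neighbour in the genome, varied more within LFD, at 8.84, 8.85, 9.66, 8.67, 8.66 and 8.12 in mice 1 to 6. HFD gave 8.97, 9.22 and 9.47, and HFD_CR mice 1 to 5 gave 8.79, 8.59, 8.63, 8.55 and 8.20. LFD mouse 3, the array high in gland, muscle and thermogenic genes, was above all others, and HFD_CR was below every HFD mouse. It fell in HFD_CR minus HFD (-0.65 ± 0.18, limma adjusted p = 0.0179), a call that ended without HFD_CR mouse 5 (-0.56, adjusted p = 0.06). HFD minus LFD was 0.40 ± 0.17 (adjusted p = 0.107), and without LFD mouse 3 it was 0.57 (adjusted p = 0.00226).

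Of the members placed on the lysosome, Slc38a7, which exports glutamine and asparagine, was higher on the high-fat diet at either intake. It gave 9.31, 9.40 and 9.44 in LFD, 9.64, 9.80 and 9.87 in HFD, and 9.70, 9.58, 9.73, 9.62 and 9.67 in HFD_CR mice 1 to 5. All LFD mice were below all others, and the high-fat groups overlapped. The rises were 0.38 ± 0.05 in HFD (1.30-fold, limma adjusted p = 4.2e-06) and 0.26 ± 0.05 in HFD_CR (1.20-fold, adjusted p = 0.00164). HFD_CR minus HFD was -0.12 ± 0.05 (adjusted p = 0.102), and passed without HFD mouse 5 (-0.14, adjusted p = 0.0269). Slc38a9, the lysosomal arginine sensor of mTORC1, rose in HFD minus LFD from 9.55 ± 0.092 (SD, n = 6) to 9.73 ± 0.0877 (n = 6) (0.18 ± 0.06, adjusted p = 0.0278). That call ended without LFD mouse 5 or 6 or HFD mouse 2, 3 or 6 (0.15 to 0.17, adjusted p = 0.058 to 0.069), and without the arrays high in muscle or gland genes (0.15, adjusted p = 0.207).

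Slc38a3 (SNAT3), a system N glutamine carrier, fell in HFD minus LFD (-0.37 ± 0.13, limma adjusted p = 0.0365). LFD mice 1 to 6 gave 7.30, 7.86, 7.21, 7.59, 7.28 and 7.50, HFD ranged from 6.99 to 7.18, and HFD_CR mice 1 to 5 gave 7.06, 7.75, 7.08, 6.92 and 6.95. The highest mice, LFD mouse 2 and HFD_CR mouse 2, had skeletal muscle lists 3.17 and 2.07 above the median array. LFD mouse 3, also 2.07 above it, was the lowest LFD mouse at 7.21. LFD mice 4 and 6, whose muscle lists were not above the median array, were at 7.59 and 7.50. The part of muscle in this gene was not tested. Without LFD mouse 2, 4 or 6 or any of HFD mice 1 to 5 the call ended (-0.38 to -0.28, adjusted p = 0.0515 to 0.0871), and without HFD_CR mouse 2 the gene was also lower in HFD_CR than in LFD (-0.45, adjusted p = 0.00857). Slc38a6, whose substrates are less well known, rose in HFD_CR minus LFD by 0.14 ± 0.04 (adjusted p = 0.0379), from 9.44 to 9.52 up to 9.56 to 9.70. That call ended without any of LFD mice 1, 3, 4 and 6 or HFD_CR mice 1, 2, 3 and 5 (0.12 to 0.15, adjusted p = 0.0529 to 0.107).

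The Slc36 carriers called in HFD minus LFD both rose. Slc36a4 (PAT4), a carrier of proline and tryptophan that, unlike PAT1 and PAT2, is not known to be proton-coupled, gave 9.78, 9.89 and 10.02 in LFD, 10.06, 10.39 and 10.54 in HFD, and 10.15, 10.06, 10.03, 10.03 and 9.97 in HFD_CR mice 1 to 5. HFD did not overlap LFD, and its lowest mouse lay within the HFD_CR range. The differences were 0.46 ± 0.07 (1.38-fold, limma adjusted p = 4.03e-05), -0.31 ± 0.07 (adjusted p = 0.00398) and 0.15 ± 0.07 (adjusted p = 0.228). A second probe set of Slc36a4 gave 0.50, -0.18 and 0.32 (adjusted p = 1.43e-06, 0.0336 and 0.00146), so the probe sets disagreed on HFD_CR minus LFD.

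Slc36a1 (PAT1, LYAAT1), which exports small neutral amino acids from lysosomes, was 9.31 ± 0.172 (SD, n = 6) in LFD, 9.55 ± 0.0871 (n = 6) in HFD and 9.39 ± 0.0625 (n = 5) in HFD_CR. It rose in HFD minus LFD by 0.24 ± 0.07 (limma adjusted p = 0.0118), with LFD mouse 3 at 9.63, inside the HFD range. Its start-site sequence is shown because it holds TCACGTGA, the core of the CLEAR element bound by Tfeb and its relatives at lysosomal genes, a motif searched after the values were known. The RefSeq stretch (GRCm38.p6, chr11:55204190-55204369, plus strand, 5′ to 3′, from 150 bases before the start to 30 after) has the match in capitals.
Slc36a1: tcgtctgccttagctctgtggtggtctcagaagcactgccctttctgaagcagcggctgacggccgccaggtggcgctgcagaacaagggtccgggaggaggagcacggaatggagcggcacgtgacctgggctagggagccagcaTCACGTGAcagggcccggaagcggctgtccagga
The match begins at -4 from the start and reads the same on both strands. These letters were found in the windows of 1.12% of all genes and of 1 of the 47 members listed.

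Slc36a2 (PAT2), a glycine and proline carrier known as a surface marker of brown and beige fat, was lower in the restricted mice. It gave 11.15, 11.52 and 11.68 in LFD, 11.47, 11.57 and 11.61 in HFD, and 11.11, 11.24, 11.13, 11.20 and 11.33 in HFD_CR mice 1 to 5. HFD_CR lay below all HFD mice, and LFD mouse 2 was as low as the restricted mice. The fall was -0.36 ± 0.07 against HFD (limma adjusted p = 0.00173). Against LFD it was -0.27 ± 0.07 (adjusted p = 0.0235), a call that ended without LFD mouse 4 or 6 or HFD_CR mouse 1, 3 or 4 (-0.27 to -0.23, adjusted p = 0.0504 to 0.0686). The mean of the 9 thermogenic genes was 7.76 to 10.15 in LFD, 7.71 to 8.27 in HFD and 7.39 to 7.98 in HFD_CR, and its part in this difference was not tested. LFD mice 3 and 6, the high ones in that list, were at 11.53 and 11.68 in Slc36a2. LFD mouse 4, the lowest LFD mouse in that list at 7.76, was at 11.52, and LFD mouse 1 was at 11.53.

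**Figure D5:**
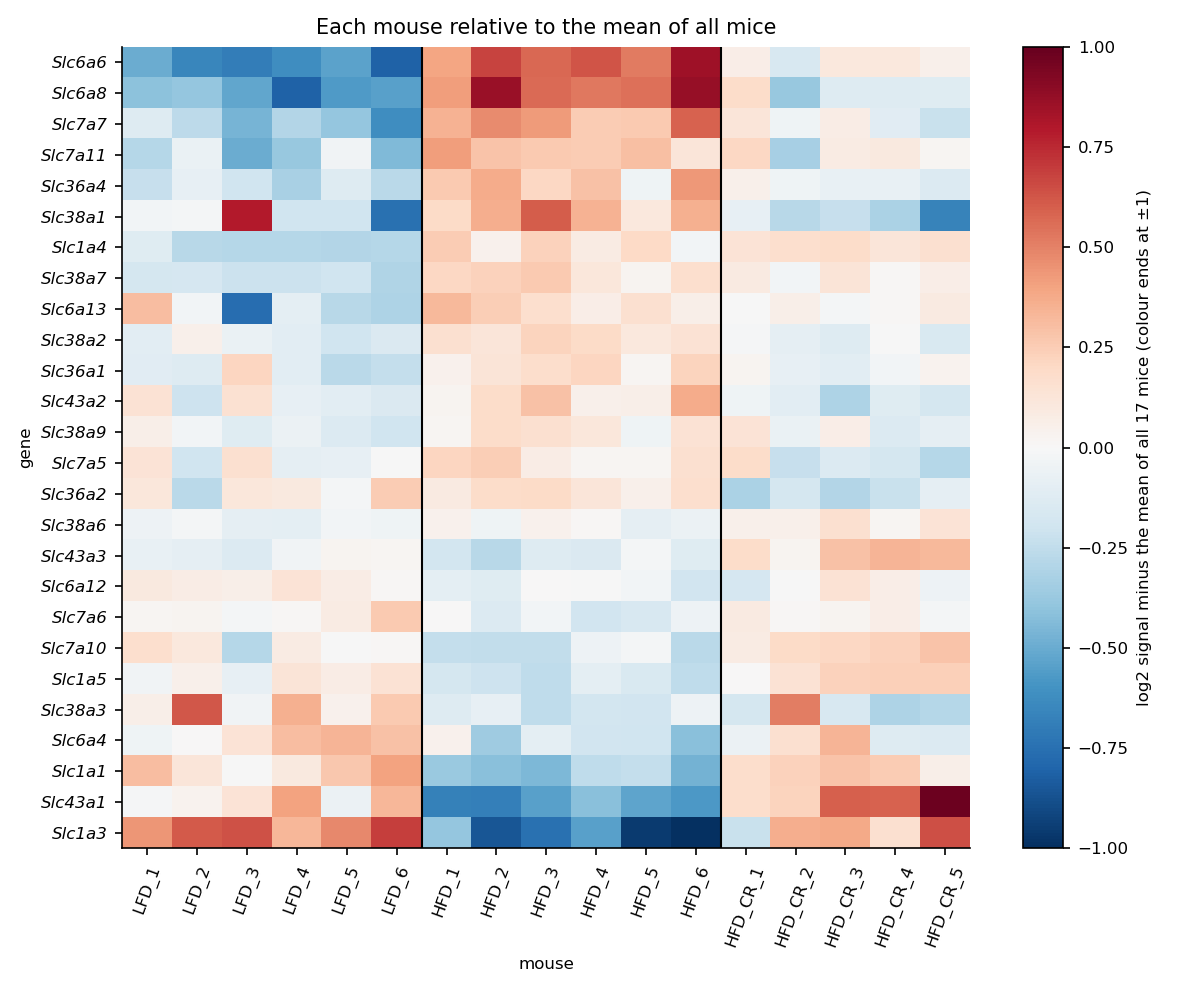
Log2 signal of the 26 called members (vertical axis) in each mouse (horizontal axis) minus the mean of all 17 mice, with the colour scale ending at -1 and 1. The HFD block is red at the top (Slc6a6, Slc6a8, Slc7a7) and blue at the bottom (Slc1a3, Slc43a1, Slc1a1), and single cells stand out for Slc38a1 and Slc6a13 in LFD mouse 3 and for Slc38a3 in LFD mouse 2 and HFD_CR mouse 2.

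The other 38 members passed the test in no comparison. Besides those already given, the ones above the lowest array median in every group were Slc38a10 (10.39, 10.50 and 10.41 in LFD, HFD and HFD_CR), Slc38a5 (7.08, 7.16 and 7.48), Slc1a6 (7.10, 7.05 and 7.10), Slc1a7 (7.28, 7.36 and 7.37) and Slc7a6os (8.44, 8.43 and 8.48). Slc38a5, a system N carrier, ranged from 7.08 to 8.01 in HFD_CR, and its HFD_CR minus LFD difference of 0.41 ± 0.16 did not pass (limma adjusted p = 0.125). Slc6a3, the dopamine transporter, lay above that median in HFD alone (6.99, 7.07 and 6.99).

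The 27 uncalled members below the median in all groups had differences from -0.19 (Slc6a20a) to 0.14 (Slc6a21) in HFD minus LFD, from -0.18 (Slc6a17) to 0.21 (Slc6a15, adjusted p = 0.0504) in HFD_CR minus HFD, and from -0.26 (Slc6a2) to 0.27 (Slc6a21) in HFD_CR minus LFD. A few of them were high in 1 mouse. The gland, thermogenic and muscle lists of LFD mouse 3 stood 2.29, 2.17 and 2.07 above the median array. In that mouse Slc7a4 was 8.12 against 6.24 to 6.95 in the others. Slc6a2, the noradrenaline transporter, was 7.85 against 6.55 to 6.99, and Slc6a20a was 7.68 against 6.51 to 7.06. In LFD mouse 2, the array highest in muscle genes, Slc38a4 was 7.12 against 6.17 to 6.73. In HFD_CR mouse 1, the array high in germ cell genes, Slc6a21 was 7.82 against 6.41 to 7.09. The part of the other tissue in these values was not tested.

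Genes outside the 7 families that handle amino acids were taken from lists written down with earlier results of these data known. The list counts stand beside 16.5% of all genes rising and 11.3% falling in HFD minus LFD. In HFD_CR minus HFD 7.69% of all genes rose and 11.3% fell. Of 14 other amino acid and peptide carriers 6 rose and 0 fell in HFD minus LFD, and 0 rose and 6 fell in HFD_CR minus HFD (medians 0.15 and -0.21). Slc15a3, a lysosomal exporter of peptides and histidine known from macrophages, rose by 1.93 ± 0.12 (limma adjusted p = 8.32e-09) and fell by 1.54 on restriction (adjusted p = 3.26e-06), and its LFD signal was below the median of every array. Of 13 partners and controls of the carriers 6 rose and 2 fell, then 2 rose and 3 fell. Cd44, a surface protein that steadies xCT, changed by 1.65 ± 0.12 and -1.14 ± 0.13, and Anpep, a peptidase that partners Slc6a19 in gut, by 1.50 ± 0.13 and -0.91 ± 0.14 (adjusted p at most 0.00014 in each).

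Of 40 genes of amino acid sensing by mTORC1, 14 rose and 5 fell in HFD minus LFD, and 3 rose and 10 fell in HFD_CR minus HFD (medians 0.09 and -0.08). Fnip2, a partner of folliculin, changed by 1.29 ± 0.10 and -0.81 ± 0.11 (limma adjusted p = 4.93e-08 and 4.25e-05). Castor1, the cytosolic arginine sensor, rose in both steps, by 0.52 ± 0.09 and 0.43 ± 0.09, and was 0.95 ± 0.09 above LFD in the restricted mice (adjusted p = 0.00017, 0.0027 and 8.61e-06). Of 28 genes of the integrated stress response 10 rose and 5 fell, then 4 rose and 9 fell, with medians of 0.08 and -0.09. Mthfd2, a mitochondrial folate enzyme and Atf4 target, changed by 0.64 ± 0.07 and -0.76 ± 0.08 (adjusted p = 2.33e-06 and 6.47e-06), whereas Gpt2, which makes alanine and is also an Atf4 target, changed by -0.89 ± 0.08 and 0.55 ± 0.08 (adjusted p = 9.93e-08 and 9.53e-05).

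Lists of the enzymes that use the carried substrates were counted in the same way. Of 21 genes of branched-chain amino acid breakdown, the fate of leucine, isoleucine and valine, 1 rose and 19 fell in HFD minus LFD, and 14 rose and 0 fell in HFD_CR minus HFD (medians -0.43 and 0.29), beside 16.5% of all genes higher and 11.3% lower, then 7.69% and 11.3%. In these comparisons the 11 adipocyte genes moved in the same directions, 1 rising and 9 falling, then 8 rising and 0 falling. In HFD_CR minus LFD the lists differed. There 1 breakdown gene rose and 10 fell (median -0.22), beside 5.80% and 3.28% of all genes, while 1 adipocyte gene rose and 1 fell (median -0.0003). The part of adipocytes in the breakdown list was not tested. Ivd, an enzyme of leucine breakdown, changed by -0.89 ± 0.08 and 0.59 ± 0.08 (limma adjusted p = 2.09e-07 and 8.5e-05), and the member that rose was the cytosolic transaminase Bcat1 (0.86 ± 0.12, adjusted p = 1.49e-05). Of 18 cytosolic aminoacyl-tRNA synthetases, which load amino acids for translation, 11 rose and 0 fell, then 0 rose and 9 fell (medians 0.19 and -0.16), with Nars at 0.44 ± 0.07 and -0.34 ± 0.07 (adjusted p = 5.43e-05 and 0.00192).

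Of 18 genes of arginine, ornithine and polyamine metabolism 6 rose and 1 fell, then 0 rose and 6 fell. Gatm, which begins creatine synthesis from arginine and glycine, changed by 1.23 ± 0.12 and -0.95 ± 0.12 (limma adjusted p = 3.45e-07 and 3.47e-05), in the same directions as the creatine importer Slc6a8. Of 13 taurine and sulfur amino acid genes 1 rose and 5 fell, then 5 rose and 2 fell. Fmo1, which can oxidise hypotaurine to taurine, changed by -0.83 ± 0.06 and 0.60 ± 0.07 (adjusted p = 3.13e-08 and 1.01e-05), opposite to the taurine importer Slc6a6. The directions of these pairs were compared after their values were known.

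Of 15 genes for glutathione from cystine 4 rose and 4 fell in HFD minus LFD, and 2 rose and 5 fell in HFD_CR minus HFD. Cth, which makes cysteine from cystathionine, fell in the restricted mice against HFD (-0.76 ± 0.09, limma adjusted p = 2.6e-05), and Chac1, which breaks glutathione down, rose in HFD (0.56 ± 0.07, adjusted p = 1.02e-05). Of 18 genes of glutamine, glutamate and aspartate metabolism 2 rose and 5 fell, then 4 rose and 2 fell, with Prodh, which starts proline breakdown, at -0.97 ± 0.11 and 0.64 ± 0.11 (adjusted p = 2.41e-06 and 0.000649). Of 14 serine, glycine and one-carbon genes 4 rose and 4 fell, then 2 rose and 3 fell, and Phgdh, the first enzyme of serine synthesis, changed by -0.43 ± 0.08 and 0.42 ± 0.09 (adjusted p = 0.000572 and 0.00193). Of 18 aromatic amino acid genes 3 rose and 4 fell, then 2 rose and 3 fell, led by Maoa, which degrades serotonin and noradrenaline, at 1.24 ± 0.10 and -0.85 ± 0.11 (adjusted p = 7.3e-08 and 2.88e-05).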

How the data were processed

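Total RNA of periprostatic fat, used only at an RNA integrity number above 7 per the labels' protocols, was labelled with biotin and read on 1 array for each mouse. The deposited values are log2 signals, 1 for each probe set. The submitters' processing notes name R 3.5.0, RMA and limma. RMA subtracts background, brings arrays to a common distribution and combines a probe set's probes, so values are relative to the other arrays. The deposited log2 values ran from 4.55 to 14.4, with array medians from 7.03 to 7.15, and no detection calls came with them. The number of arrays limits the precision.

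Of 33793 probe sets 23521 had 1 gene symbol, 1814 several and 8458 none. Probe sets without exactly 1 symbol were left out, and a gene with more than 1 was represented by its brightest on average, which gave 22180 genes. Using limma 3.58.1 under R 4.3.3, group means were fitted to the 17 arrays together (eBayes, no trend, residual degrees of freedom 14, prior 3.625), p-values were adjusted by Benjamini-Hochberg over all genes, and a call needed a value under 0.05. The procedure was also run on simulated data with independent noise in each gene. That setting lacks the shifts shared by many genes in these arrays, so no conclusion is drawn from it. Errors of differences are standard errors of the fit.

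The families and all lists were chosen with earlier results of these data known, and members were then taken by symbol. Named were every member called in at least 1 comparison, uncalled members above the lowest array median in all groups, and from each pathway list at most the 2 called genes with the largest difference in either of the first comparisons. Promoter windows of 300 bases came from RefSeq's table for GRCm38.p6, which held 47 of the 64 members, and protein sequences were not used here. Plots used matplotlib 3.10.9 and Python 3.11.15. Alternatives left out arrays or changed the probe set, filter, scaling, variance model, covariate or threshold.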

Additional observations from a re-analysis of the deposited data

Results flagged for a closer look

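Dixon's ratio, the gap between an extreme mouse and its neighbour over the range of the group, was taken for 37 members in 3 groups each. It passed the critical value in 6 of 111 groups, and chance alone gives about 1 in 20. For Slc1a4 in LFD the ratio was 0.909, with mouse 1 at 8.03 and the others from 7.86 to 7.88. For Slc38a7 in LFD it was 0.665, with mouse 6, high in thermogenic genes, at 9.31 and the next at 9.40. HFD_CR mouse 2, the muscle-high array, was the lowest in Slc6a6 at 11.20 with the next at 11.42 (0.801), and the highest in Slc38a3 at 7.75 with the next at 7.08 (0.81). LFD mouse 3, the gland-, muscle- and thermogenic-high array, was the highest in Slc36a1 at 9.63 (0.661) and the lowest in Slc7a8 at 10.73 (0.646).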

How the results depend on the processing

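Outside the covariate fits and the stricter threshold, 28 alternatives were run, 27 for Slc7a11 and Slc38a3, which the filter on low values removed. The germ-cell-high array is HFD_CR mouse 1, so leaving it out and leaving out that mouse are the same fit. Under those run, 14 of the 21 member calls in HFD minus LFD, 12 of 15 in HFD_CR minus HFD and 5 of 8 in HFD_CR minus LFD held each time. Leaving out 1 array gave 3309 to 3939 genes higher and 2087 to 2536 lower in HFD minus LFD (members 9 to 14 and 5 to 10), 1297 to 1901 and 2000 to 2836 in HFD_CR minus HFD (members 6 to 7 and 7 to 10), and 977 to 1440 and 521 to 915 in HFD_CR minus LFD (members 5 to 9 and 0 to 2). Mouse numbers were not said to pair animals, and residuals of same-numbered arrays correlated at -0.108 to 0.409 over 16 pairs. With the number as a replicate block, 12 members rose and 9 fell in HFD minus LFD, 6 and 9 in HFD_CR minus HFD, and 7 and 0 in HFD_CR minus LFD.

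For members lower in HFD_CR minus LFD, 1 as reported (Slc36a2), the count was 0 under that block (3 at an unadjusted p under 0.05), 2 without the arrays with other tissue, 0 without LFD mice 3 and 6, 0 without the germ-cell-high array and 2 after repeated quantile normalization. Array weights gave 2630 genes higher and 14 members lower in HFD_CR minus HFD. At an adjusted p under 0.01 there were 1541 genes lower and 8 members higher and 5 lower in HFD minus LFD, 965 genes higher and 1610 lower in HFD_CR minus HFD, and 615 genes higher, 352 lower, 4 members higher and 0 lower in HFD_CR minus LFD.

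The marker covariates moved with the groups. With the adipocyte list limma called 254 genes higher and 52 lower in HFD minus LFD, with 2 members higher and 0 lower (5 lower unadjusted). In HFD_CR minus HFD it called 0 genes higher (706 unadjusted) and 1 lower, with 0 members either way (4 and 4 unadjusted). With the macrophage list limma called 0 genes higher and 0 lower in HFD minus LFD (410 and 270 unadjusted) and in HFD_CR minus HFD (683 and 567), with 0 members in each (3 higher and 1 lower, then 5 and 2, unadjusted). In HFD_CR minus LFD it called 63 genes higher and 16 lower, with 1 member higher and 0 lower (2 unadjusted). Signs that turned with the adipocyte list in HFD minus LFD were those of Slc1a5 (0.0568), Slc36a1 (-0.0502), Slc38a9 (-0.0396), Slc43a2 (-0.204) and Slc7a10 (0.211), and in HFD_CR minus HFD those of Slc38a1 (0.345), Slc43a2 (0.0595) and Slc7a5 (0.0944). With the macrophage list they were, in HFD minus LFD, those of Slc1a5 (0.0797), Slc36a1 (-0.0776), Slc36a4 (-0.0951), Slc38a3 (0.233), Slc38a9 (-0.317), Slc43a2 (-0.334), Slc6a12 (0.12) and Slc6a4 (0.491), and in HFD_CR minus HFD those of Slc36a4 (0.0264), Slc43a2 (0.0127), Slc7a5 (0.066) and Slc7a7 (0.0219). The cause of these changes was not tested.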

Other observations

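TGACNNNGC, the core of the antioxidant response element, occurred on either strand in the promoter windows of 9 of the 47 members listed, 5 of them called (Slc36a1, Slc38a2, Slc43a1, Slc6a13 and Slc7a6), beside 14% of all genes. In Slc36a1 a match begins within the last 3 letters of TCACGTGA, so those matches overlap. Members that are neighbours in the genome did not share calls in every case. Slc38a1 and Slc38a2 both fell in HFD_CR minus HFD (-0.65 and -0.24), while Slc38a4, next to them, was not shown above background. Slc36a1 rose in HFD minus LFD (0.24) and its neighbour Slc36a2 did not pass there (0.09).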
